A study of Mus musculus with 6 samples.

Results

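Adrenomedullin and the parts of its receptor were examined in endothelial cells (ECs) of MC38 tumors. The 5 genes, Adm, Calcrl, Ramp1, Ramp2 and Ramp3, were chosen by name for their place in this peptide and receptor system, and the rule used no measured value, though earlier results of these data were known when they were chosen, out of 24346 genes in the deposited tables. Adm, Calcrl, Ramp2 and Ramp3 reached a mean of at least 1 FPKM (reads scaled to transcript length in kilobases and to the sequencing depth of the sample) and were among the 10964 genes tested, and Ramp1 did not reach it. MC38 is a murine colon carcinoma line, and its cells were injected under the skin of 8 to 10 week old mice. WT C57BL/6 mice were compared with Apelin-KO mice on the C57BL/6 background, 3 samples each, with tumors taken at day 19 and CD31+CD45- cells sorted from them. The knockout mice lacked Apelin in the whole body from conception, so the comparison is not limited to ECs. The sample titles of both groups also name saline, an agent that is absent from the study's description of the sequencing. Elsewhere the study infused saline by implanted pump as a control in WT and in Apelin-KO mice. Whether the sequenced mice carried pumps is not stated, and no label says that each sample came from a separate mouse. The study sequenced these cells to look for transcripts in tumor ECs that depend on Apelin.

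Adrenomedullin, encoded by Adm, is a secreted peptide that widens blood vessels and tightens the endothelial barrier, and its gene is a known target of hypoxia inducible factors (HIFs). It acts through the calcitonin receptor-like receptor, a G-protein-coupled receptor encoded by Calcrl that reaches the cell surface only with a receptor activity-modifying protein (RAMP) and signals mainly through the stimulatory G protein and cAMP. With RAMP2 or RAMP3 the receptor binds adrenomedullin, and with RAMP1 it binds calcitonin gene-related peptide (CGRP). Apelin and its receptor APJ are another peptide and G-protein-coupled receptor pair of blood vessels.

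The positions and upstream sequences of the genes follow, since Adm is a known HIF target and Ramp3 had the same 3 highest samples as Adm. In the GENCODE annotation of GRCm38, Adm lies at chr7:110627661-110629820 on the plus strand and its longest coding transcript has 4 exons. Calcrl lies at chr2:84330626-84425411 on the minus strand with 16 exons, and Ramp1 at chr1:91179822-91225196 on the plus strand with 3 exons. Ramp2 and Ramp3 are both on the plus strand of chromosome 11, at chr11:101246028-101259546 with 4 exons and at chr11:6658521-6677475 with 3 exons. The RefSeq promoter table of GRCm38.p6 held 4 of the 5 genes, Ramp2 being the other. The windows printed run from 250 bases before the RefSeq start of the gene to 50 bases after it, 5′ to 3′ on the strand of the gene, and cover chr7:110627407-110627706 for Adm, chr11:6658283-6658582 for Ramp3 and chr2:84425217-84425516 for Calcrl. The RefSeq start used here lies 4 bases before the GENCODE start of Adm, 12 bases after that of Ramp3 and 145 bases after that of Calcrl. Capitals mark the HIF core letters ACGTG or GCGTG on either strand, and in Adm also the TATAA letters on either strand, which overlap each other there as TTATAA.
Adm promoter: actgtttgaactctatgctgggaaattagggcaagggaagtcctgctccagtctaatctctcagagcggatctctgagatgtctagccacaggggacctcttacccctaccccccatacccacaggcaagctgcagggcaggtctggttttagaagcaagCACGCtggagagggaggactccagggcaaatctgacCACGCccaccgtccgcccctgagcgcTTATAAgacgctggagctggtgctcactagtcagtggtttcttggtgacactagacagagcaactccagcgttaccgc
Ramp3 promoter: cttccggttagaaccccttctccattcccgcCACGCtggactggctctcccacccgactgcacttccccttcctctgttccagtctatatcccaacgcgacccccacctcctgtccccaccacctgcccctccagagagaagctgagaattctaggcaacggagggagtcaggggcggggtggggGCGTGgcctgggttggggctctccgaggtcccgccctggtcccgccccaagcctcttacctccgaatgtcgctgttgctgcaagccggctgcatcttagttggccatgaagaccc
Calcrl promoter: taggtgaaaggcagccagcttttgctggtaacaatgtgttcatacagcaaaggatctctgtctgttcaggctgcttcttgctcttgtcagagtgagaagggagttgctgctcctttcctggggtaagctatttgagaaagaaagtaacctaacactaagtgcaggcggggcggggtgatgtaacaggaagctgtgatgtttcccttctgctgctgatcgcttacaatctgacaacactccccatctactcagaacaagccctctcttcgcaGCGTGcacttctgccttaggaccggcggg
The Adm window held 2 HIF core matches, at 90 and 54 bases before the RefSeq start, and the TTATAA stretch, which begins 28 bases before it. The Ramp3 window held 2 HIF core matches, at 219 and 65 bases before the RefSeq start. The Calcrl window held 1 match, 21 bases after the RefSeq start, and the Ramp1 window held none. Such letters are common, since 43.8% of 32851 promoter windows of this length held at least 1 HIF core match, 17.3% held 2 or more and 24.9% held TATAA. These matches describe the letters only.

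The 6 tables were similar in size, with FPKM sums of 489396 to 529018 and an estimated 9000000 to 10250000 reads per sample, with 3 samples per group. Apln, the deleted gene, had 457 ± 40.7 FPKM (SD, n = 3) in WT and 17.3 ± 7.20 FPKM in Apelin-KO samples, and was the only one of the 10964 genes (0.00912%) to pass an adjusted p of 0.05 (adjusted p = 0.00747, limma with Benjamini-Hochberg adjustment). Aplnr, which encodes APJ, had 362 ± 26.4 FPKM in WT and 410 ± 137 FPKM in Apelin-KO samples (adjusted p = 0.880). All 15 listed endothelial markers were above the 1 FPKM minimum, with a summed level of 4283 to 5095 FPKM in WT and 5187 to 5522 FPKM in Apelin-KO samples. The summed level of 20 hematopoietic markers, which the CD45- gate should remove, was 355 to 1251 FPKM in WT and 158 to 428 FPKM in Apelin-KO samples, and that of 10 fibroblast markers 196 to 344 and 131 to 203 FPKM. The 12 pericyte and smooth muscle markers summed to 149 to 186 FPKM in WT and 197 to 221 FPKM in Apelin-KO samples, and 11 markers of epithelial tumor cells to 8.70 to 21.9 FPKM over all samples, with Cldn3 listed at 0 in each. The 7 lymphatic endothelial markers summed to 193 to 443 FPKM in WT and 182 to 294 FPKM in Apelin-KO samples. In such bulk samples, fewer cells of a type and less RNA per cell cannot be told apart, and a p-value measures the spread between these samples only.

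Between genotypes, the mean of each of the 4 tested genes was higher in Apelin-KO than in WT ECs, and none of them passed the test. The differences in log2(FPKM + 1), Apelin-KO minus WT, were 0.60 for Adm, 0.46 for Ramp3, 0.21 for Ramp2 and 0.19 for Calcrl, with a median of 0.34 over the 4 genes beside 0.01 over all genes tested. Their adjusted p-values lay between 0.606 and 0.626 in limma, and 0 of the 4 had an unadjusted p under 0.05, where 9.42% of all tested genes did. The highest WT sample exceeded the lowest Apelin-KO sample in each of the 5 genes, whereas the groups did not overlap in 14.4% of all genes tested. A higher mean log2(FPKM + 1) in Apelin-KO samples was itself common, at 52.5% of all genes tested, and all counts of higher means given here are on this log2 scale. After scaling each sample to its endothelial markers, the differences of Calcrl and Ramp2 turned to -0.05 and -0.03, those of Adm and Ramp3 became 0.35 and 0.22, and the median over all genes tested moved from 0.01 to -0.23.

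**Figure D1:**
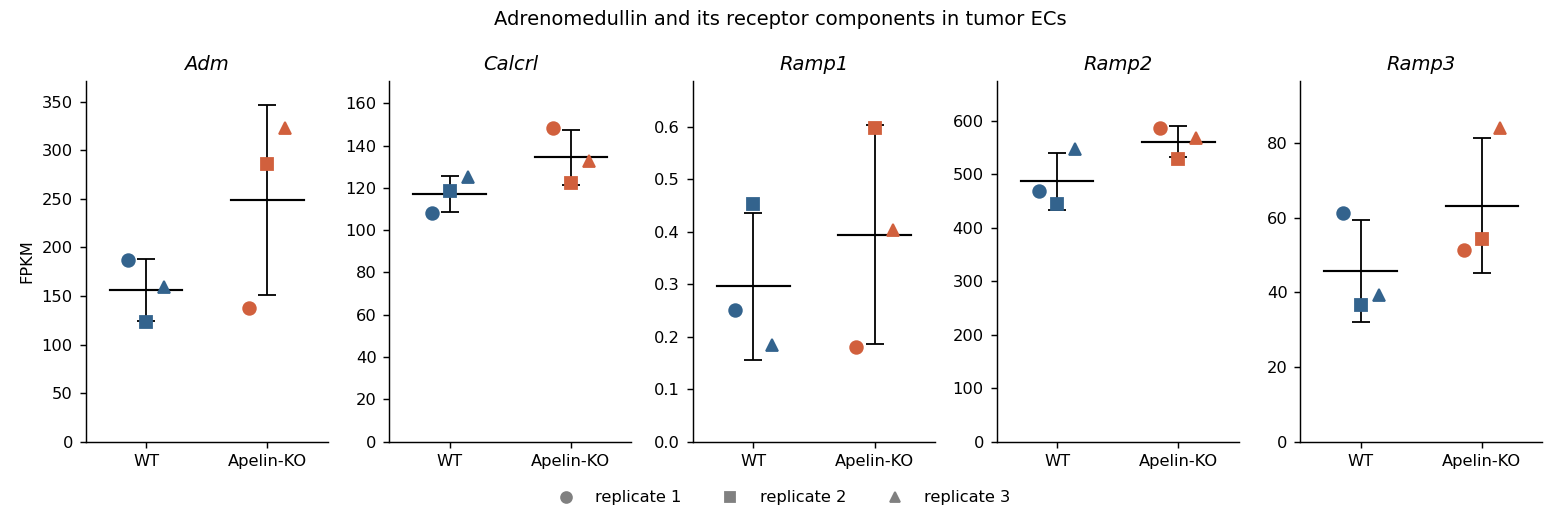
FPKM of the 5 genes in each sample, by genotype, on linear axes that start at 0 and differ between panels. Points are samples, horizontal lines are group means and bars are SD (n = 3); in every panel at least 1 Apelin-KO sample lies below the highest WT sample.

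The ligand transcript Adm was abundant and varied the most of the 4 tested genes from sample to sample. It had 187, 123 and 159 FPKM in WT samples 1, 2 and 3, and 137, 286 and 323 FPKM in Apelin-KO samples 1, 2 and 3. Apelin-KO samples 2 and 3 lay above all WT samples, while Apelin-KO sample 1 lay between the WT samples. The group means were 156 ± 32.0 FPKM in WT and 249 ± 98.2 FPKM in Apelin-KO samples, a ratio of 1.59. On the log2(FPKM + 1) scale the difference was 0.60 with a standard error of 0.33 and a 95% interval of -0.18 to 1.37 (adjusted p = 0.609, limma). Within the Apelin-KO group the highest sample was 2.35 times the lowest, against 1.52 times within WT. The pooled within-group SD of Adm, 0.52 on the log2 scale, was larger than that of 96.0% of the genes tested. By mean FPKM Adm ranked 377 of all 24346 genes, and an estimated 1320 to 3630 reads per sample stood behind its values. Leaving out Apelin-KO sample 1 gave a difference of 0.98 (adjusted p = 0.556) and leaving out Apelin-KO sample 3 gave 0.36 (adjusted p = 0.841). The annotated antisense gene Gm28863 covers all 2160 bases of Adm. The libraries were stranded, but the strand setting of the quantification is not stated, so reads from the antisense gene cannot be told apart here.

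Calcrl, the receptor itself, had a nearly even level in all samples. WT samples 1, 2 and 3 had 108, 118 and 125 FPKM, and Apelin-KO samples 1, 2 and 3 had 148, 122 and 132 FPKM. Only Apelin-KO sample 2 fell inside the WT range, and the highest of the 6 samples was 1.37 times the lowest. Means were 117 ± 8.60 FPKM in WT and 134 ± 13.0 FPKM in Apelin-KO samples, and the log2 difference of 0.19 had a standard error of 0.12 and a 95% interval of -0.08 to 0.47 (adjusted p = 0.626, limma). Its within-group SD of 0.12 on the log2 scale was larger than that of 29.4% of the genes tested. With a long transcript of 4882 bases, Calcrl gathered the most estimated reads of the 5 genes, 4990 to 6490 per sample.

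Ramp2, which makes the receptor one for adrenomedullin, was the most highly expressed of the 5 genes and ranked 96 of all genes by mean FPKM. It had 469, 444 and 547 FPKM in WT samples 1, 2 and 3, and 586, 529 and 568 FPKM in Apelin-KO samples 1, 2 and 3. WT sample 3 lay above Apelin-KO sample 2, and the other samples were separated by genotype. The means of 486 ± 53.5 FPKM in WT and 561 ± 29.3 FPKM in Apelin-KO samples differed by 0.21 on the log2 scale (standard error 0.11, 95% interval -0.06 to 0.48, adjusted p = 0.606, limma). The order of the samples for Ramp2 and Calcrl was nearly the same, with Apelin-KO samples 1 and 3 highest, then WT sample 3, then Apelin-KO sample 2, and they differed only in which of WT samples 1 and 2 was lower. The gene model of Ramp2 overlaps that of Vps25 on the same strand over 5840 bases, and Vps25 had 98.1 to 117 FPKM, so the division of reads between them rests on the authors' quantification.

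Ramp3, the RAMP of the other adrenomedullin receptor, was expressed well below Ramp2 in every sample. WT samples 1, 2 and 3 had 61.3, 36.5 and 39.4 FPKM, and Apelin-KO samples 1, 2 and 3 had 51.4, 54.2 and 84.0 FPKM. Apelin-KO sample 3 was the highest, and WT sample 1 was above the other Apelin-KO samples. The means were 45.7 ± 13.5 FPKM in WT and 63.2 ± 18.0 FPKM in Apelin-KO samples, a log2 difference of 0.46 (standard error 0.25, 95% interval -0.14 to 1.06, adjusted p = 0.609, limma). Like Adm it varied widely within groups, with an SD of 0.39 on the log2 scale that was larger than that of 92.1% of the genes tested. The difference ranged from 0.24 without Apelin-KO sample 3 to 0.69 without WT sample 1.

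Ramp1, the RAMP of the CGRP receptor, was near the limit of what was measured. Its levels were 0.251, 0.454 and 0.185 FPKM in WT samples 1, 2 and 3, and 0.181, 0.598 and 0.404 FPKM in Apelin-KO samples 1, 2 and 3. These values correspond to an estimated 3.6 to 13.0 reads per sample, the groups overlapped, and no difference was detectable at this depth. Means were 0.297 ± 0.140 FPKM in WT and 0.394 ± 0.209 FPKM in Apelin-KO samples.

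In order of mean FPKM the genes stood as Ramp2, Adm, Calcrl, Ramp3 and Ramp1. The ranges of Adm and Calcrl over the 6 samples, 123 to 323 and 108 to 148 FPKM, overlapped, and no other neighbours in this order did.

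**Figure D2:**
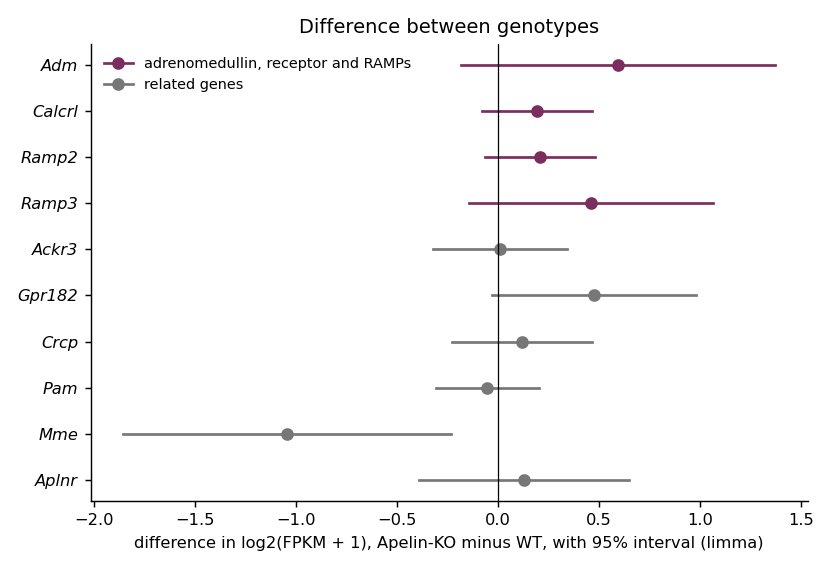
Difference in log2(FPKM + 1), Apelin-KO minus WT, with 95% intervals from limma (n = 3 per group), for the 4 tested genes of the system (purple) and for related genes and Aplnr (grey). The intervals of Adm, Calcrl, Ramp2 and Ramp3 all include 0, and among the others that of Mme excludes 0 before adjustment for multiple tests.

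Ratios within a sample compare the receptor parts free of the scaling between samples. Ramp2 made up 88.4%, 92.3% and 93.3% of the summed FPKM of the 3 Ramp genes in WT samples 1, 2 and 3, and 91.9%, 90.6% and 87.1% in Apelin-KO samples 1, 2 and 3. Ramp3 made up 6.72% to 12.9% and Ramp1 at most 0.103%. The mean Ramp2 share was 91.3% ± 2.57 in WT and 89.9% ± 2.51 in Apelin-KO samples, a difference within the spread of the samples (p = 0.50, exact permutation test, two-sided, n = 3 per group). With 3 samples against 3, this test cannot give a p below 0.1. The ratio of Ramp2 to Ramp3 was 7.66, 12.2 and 13.9 in WT samples 1, 2 and 3, and 11.4, 9.76 and 6.76 in Apelin-KO samples 1, 2 and 3. It was lowest in Apelin-KO sample 3 and WT sample 1, the samples with the most Ramp3, and its log2 values did not separate the genotypes (p = 0.50, exact permutation test, n = 3 per group).

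Transcripts of the RAMPs exceeded those of the receptor by a similar factor in every sample. Summed Ramp FPKM were 4.91, 4.06 and 4.69 times Calcrl FPKM in WT samples 1, 2 and 3, and 4.30, 4.77 and 4.92 times in Apelin-KO samples 1, 2 and 3. The mean ratios of 4.55 ± 0.439 in WT and 4.66 ± 0.323 in Apelin-KO samples overlapped (p = 0.60 on log2 ratios, exact permutation test, n = 3 per group). The ratio of the ligand to its receptor covered a wider range. Adm FPKM were 1.73, 1.04 and 1.27 times Calcrl FPKM in WT samples 1, 2 and 3, and 0.927, 2.34 and 2.44 times in Apelin-KO samples 1, 2 and 3 (p = 0.40, exact permutation test, n = 3 per group). Both the lowest and the highest of these ratios were in the Apelin-KO group.

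**Figure D3:**
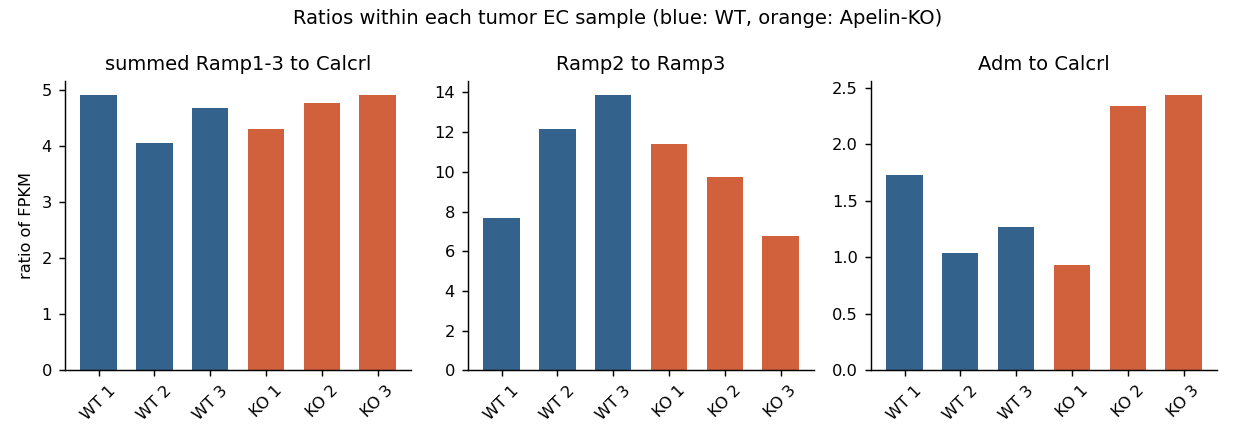
Ratios of FPKM within each sample, on linear axes that start at 0. Bars are single samples; the ratio of summed Ramp FPKM to Calcrl stays between 4.06 and 4.92, the ratio of Ramp2 to Ramp3 spans 6.76 to 13.9, and the ratio of Adm to Calcrl spans 0.927 to 2.44.

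Levels of Calcrl and Ramp2 were set beside the 15 endothelial markers, whose mean log2(FPKM + 1) was 7.60, 7.45 and 7.74 in WT samples 1, 2 and 3, and 7.84, 7.78 and 7.91 in Apelin-KO samples 1, 2 and 3. The marker mean was higher in all Apelin-KO than in all WT samples, by 0.24 (p = 0.1, exact permutation test, n = 3 per group, the smallest p this design allows), and all 15 markers had a higher mean in Apelin-KO samples. Ramp2 lay between 1.24 and 1.36 log2 units above the marker mean of its own sample, with means of 1.33 ± 0.04 in WT and 1.29 ± 0.06 in Apelin-KO samples. Calcrl lay 0.55 to 0.85 log2 units below it, and the distances overlapped between genotypes for both genes (p = 0.60 for each, exact permutation test, n = 3 per group). Adm ranged from -0.72 to 0.43 and Ramp3 from -2.41 to -1.50 around the marker mean, the extremes of Adm both being Apelin-KO samples. The part of the endothelial marker levels and of the hematopoietic, fibroblast and pericyte marker levels in the differences of the 5 genes was not tested.

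Adm was set beside 16 other genes of the hypoxia response, 3 of them HIF subunits and the rest known HIF targets. Of these, 12 had a higher mean log2(FPKM + 1) in Apelin-KO and 4 in WT samples, with a median difference of 0.13, and none passed the adjusted test. Pdk1, the gene of a pyruvate dehydrogenase kinase, alone in the list had an unadjusted p under 0.05, where 9.42% of all genes had one. Its level was 29.8 ± 1.76 FPKM in WT and 36.3 ± 1.53 FPKM in Apelin-KO samples (adjusted p = 0.507, limma). The glucose transporter gene Slc2a1 had 114, 84.2 and 80.5 FPKM in WT samples 1, 2 and 3, and 84.0, 115 and 217 FPKM in Apelin-KO samples 1, 2 and 3, an order close to that of Adm. Vegfa, the main endothelial growth factor gene, was low at 0.751 to 8.57 FPKM and highest in WT sample 1. Hif1a spanned 156 to 212 FPKM (log2 difference 0.11, adjusted p = 0.816). Epas1, which encodes HIF-2α, the HIF subunit first found in endothelium, had 159 ± 25.4 FPKM in WT and 196 ± 13.5 FPKM in Apelin-KO samples (log2 difference 0.31, adjusted p = 0.531). After scaling to the endothelial markers the differences of Epas1, Pdk1 and Slc2a1 were 0.066, 0.036 and 0.23, from 0.31, 0.28 and 0.48.

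The mean over the hypoxia genes did not separate the genotypes. In log2(FPKM + 1) it was 5.66, 5.32 and 5.30 in WT samples 1, 2 and 3, and 5.19, 5.53 and 5.96 in Apelin-KO samples 1, 2 and 3 (p = 0.70, exact permutation test, n = 3 per group). Apelin-KO sample 3, WT sample 1 and Apelin-KO sample 2 were the 3 highest samples for this mean, and the same 3 samples were the highest for Adm and for Ramp3. That set of 3 was also the highest for 7 of the 16 hypoxia genes, Hif1a, Slc2a1, Bnip3, Egln3, Ankrd37, P4ha1 and Aldoa, and for 800 of all 10964 genes tested (7.30%). This count was made after the values of Adm had been seen and is a description. The mean log2(FPKM + 1) of the 7 lymphatic endothelial markers was highest in the same 3 samples too, at 4.80 in WT sample 1, 4.70 in Apelin-KO sample 2 and 4.08 in Apelin-KO sample 3, against 3.47 to 3.94 in the others, although only 1 of the 7 genes, Lyve1, had that set of 3 highest by itself. The set was the highest for 4 of the 24 cAMP pathway genes and 2 of the 15 endothelial markers, and for 0 of the tested hematopoietic, fibroblast and pericyte markers. The part of lymphatic cells or of the hypoxia response in the levels of Adm and Ramp3 was not tested.

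**Figure D4:**
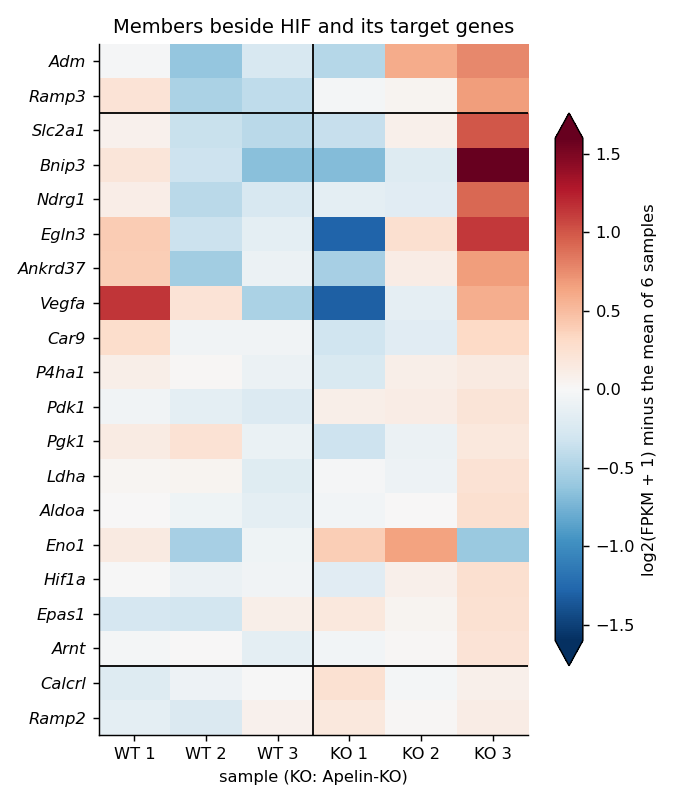
Log2(FPKM + 1) of each gene minus its mean over the 6 samples, for Adm and Ramp3, the 16 hypoxia genes, and Calcrl and Ramp2; columns are samples and colors are clipped at the ends of the scale. Apelin-KO sample 3 is the highest sample for Adm, Ramp3, Slc2a1 and Bnip3, whereas Calcrl and Ramp2 stay near 0 throughout.

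**Figure D5:**
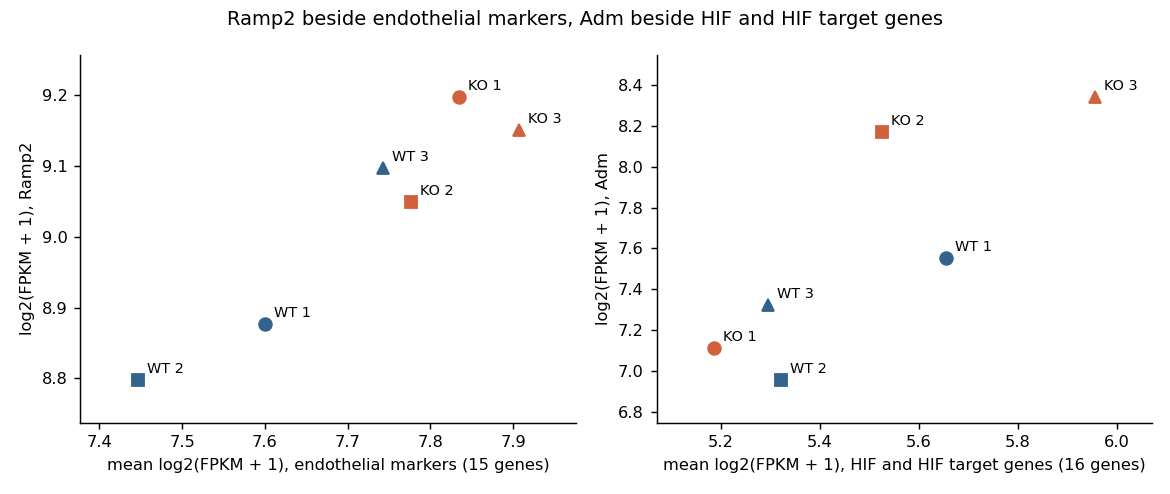
Left, Ramp2 against the mean of 15 endothelial markers, and right, Adm against the mean of 16 hypoxia genes, all in log2(FPKM + 1), with 1 point per sample. Ramp2 and the marker mean are both lowest in WT sample 2, and Adm and the hypoxia mean are both highest in Apelin-KO sample 3.

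Other genes of the calcitonin peptide family, and genes that process, bind or clear adrenomedullin, formed a list of 10. The other ligands were barely detected, with Calca (CGRP and calcitonin) and Iapp (amylin) listed at 0 in all 6 samples, Adm2 (intermedin) at most 0.238 FPKM and Calcb (the second CGRP gene) at most 0.257 FPKM. Calcr, the calcitonin receptor, reached at most 0.199 FPKM. Adm and Calcrl were thus the only ligand and receptor of the family above 1 FPKM. The other 5 genes were tested, of which 3 had a higher mean log2(FPKM + 1) in Apelin-KO and 2 in WT samples (median log2 difference 0.0099), none passed the adjusted test and all overlapped between genotypes.

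Ackr3, a scavenger receptor that takes up chemokines and adrenomedullin, had a level near that of Adm in WT ECs, with 182 ± 31.7 FPKM in WT and 182 ± 9.73 FPKM in Apelin-KO samples and a log2 difference of 0.01 (95% interval -0.32 to 0.34, adjusted p = 0.990, limma) whose sign depended on the scaling. Gpr182, a receptor of endothelium that was once proposed to bind adrenomedullin, had 7.84, 4.31 and 6.06 FPKM in WT samples 1, 2 and 3, and 9.71, 6.84 and 9.62 FPKM in Apelin-KO samples 1, 2 and 3 (log2 difference 0.48, 95% interval -0.03 to 0.98, adjusted p = 0.536). Only Apelin-KO sample 2 fell inside the WT range of Gpr182, and the difference was 0.23 after scaling to the endothelial markers and 0.29 without WT sample 2. Pam, the enzyme that amidates the peptide and so makes it active, was even at 11.6 to 14.1 FPKM, and Crcp, a protein that couples the receptor to its signal, at 20.1 to 28.8 FPKM.

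Mme, the gene of neprilysin, a protease that degrades adrenomedullin among other peptides, was the one with the largest difference in this list and was higher in WT samples. It had 26.9, 26.1 and 14.1 FPKM in WT samples 1, 2 and 3, and 6.62, 9.18 and 15.7 FPKM in Apelin-KO samples 1, 2 and 3. WT sample 3 lay below Apelin-KO sample 3, so the groups overlapped. The log2 difference was -1.04 with a standard error of 0.34 (95% interval -1.86 to -0.23, unadjusted p = 0.0187, adjusted p = 0.501, limma). Of the markers of other cells, 17 of 18 tested hematopoietic and all 6 tested fibroblast genes also had a higher mean in WT samples, as did 2 of 8 tested pericyte, 4 of 7 lymphatic and 0 of 15 endothelial markers and not the 1 tested epithelial marker. Their part in the Mme level was not tested.

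Downstream of the receptor, 24 genes of the stimulatory G protein and cAMP pathway were all above the 1 FPKM minimum. By mean log2(FPKM + 1), 17 were higher in Apelin-KO and 7 in WT samples, with a median log2 difference of 0.13. The groups did not overlap for 9 of the 24, beside 14.4% of all genes, and 3 had an unadjusted p under 0.05, beside 9.42%, while 0 passed the adjusted test in limma. The mean of the endothelial markers was higher in Apelin-KO samples by 0.24, more than the median of this list, and its part in these differences was not tested. Pde2a, a phosphodiesterase that breaks down cAMP and cGMP, had 139 ± 13.7 FPKM in WT and 190.5 ± 26.5 FPKM in Apelin-KO samples (log2 difference 0.45, adjusted p = 0.501, and 0.20 after scaling to the endothelial markers). Adrbk1, a kinase that desensitizes G-protein-coupled receptors, had 21.1 ± 1.22 FPKM in WT and 25.5 ± 2.03 FPKM in Apelin-KO samples (log2 difference 0.26, adjusted p = 0.521, and 0.017 after that scaling). Adcy7, an adenylyl cyclase prominent in blood cells, had 5.12 ± 2.14 FPKM in WT and 2.14 ± 0.482 FPKM in Apelin-KO samples (log2 difference -0.90, adjusted p = 0.501), the same direction as the hematopoietic markers, whose part in it was not tested.

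The genes whose pattern over the 6 samples was most like each of the 4 tested genes were found by the Pearson correlation of log2(FPKM + 1) with all 10963 other genes tested, as a description. For Adm they were Smad1 (r = 0.998), Evi5 (0.997) and Cep72 (0.996), and for Ramp3 they were Ethe1 (0.985), Nat6 (0.982) and Zyx (0.982). For Calcrl they were Polr2a (0.992), Npr3 (0.991) and Rbmx (0.991), and for Ramp2 they were Cyb5a (0.994), Ccdc102a (0.992) and Taf9b (0.992). These values rest on 6 samples, and 186 to 240 genes exceeded 0.9 for each of the 4.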

How the data were processed

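RNA of CD31+CD45- tumor ECs was measured in 3 WT and 3 Apelin-KO samples, grouped by their labels. The authors prepared stranded mRNA libraries, read 75 bases from 1 end, aligned them to mm10 and computed FPKM with Cufflinks, and these FPKM were deposited per gene symbol and sample. The submitters' processing notes name TopHat2 2.1.1, Bowtie2 2.2.4, SAMtools 1.0 and Cufflinks 2.2.1. The paper names other versions of TopHat, Bowtie2 and SAMtools. The annotation is not given in the sources used here. Read counts were not used, and depth was estimated from the spacing of low FPKM, 1 read apart, in 3742 single-transcript genes, assuming 200-base fragments (69.3% to 72.2% of low values lay within 0.1 of a whole read), so reads per gene are approximate.

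FPKM were used as deposited, as log2(FPKM + 1). Every gene averaging 1 FPKM or more over the samples was tested with limma 3.58.1 in R 4.3.3 (two-sided, no block), with Benjamini-Hochberg adjustment over all genes tested. Fold changes on this scale understate those of low genes. Ratios were compared by exact permutation over samples, written in Python 3.11.15 with numpy 2.4.6. The code was tested on simulated data. Named genes were the 5 members, the calcitonin family list, Apln, Aplnr, the 3 genes with the lowest p of the cAMP and hypoxia lists with Vegfa, Slc2a1, Hif1a and Epas1, and the 3 most similar genes per member. Bnip3, Egln3, Ankrd37, P4ha1, Aldoa and Lyve1 were named after their values were seen. The members and lists were chosen with earlier results of these data known. One gene of the calcitonin family list as first written is not reported here, and the counts are over the other 10. Alternatives changed the pseudocount, filter, scaling, variance, block and samples included. Gene positions come from GENCODE M21 (GRCm38, the same assembly as mm10) and promoters from RefSeq.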

Additional observations from a re-analysis of the deposited data

How the results depend on the processing

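None of the members passed an adjusted p of 0.05 under any alternative run. With 3 samples per group, the intervals of the members include both no difference and differences of up to 0.47 (Calcrl) to 1.37 (Adm) on the log2 scale, and Ramp1 rests on too few reads to compare. Scaling to the endothelial markers turned the difference, Apelin-KO minus WT, of Calcrl to -0.049 (adjusted p = 0.820), Ramp2 to -0.034 (adjusted p = 0.850), Aplnr to -0.11, Ackr3 to -0.23, Crcp to -0.12 and Hif1a to -0.13, and Ackr3 was -0.0049 with upper quartile scaling and -0.038 with quantile normalization. That scaling sets the mean of the markers equal in all samples. Over these and the other alternatives Adm lay between 0.35 and 0.60 and Ramp3 between 0.22 and 0.47, both lowest with the endothelial marker scaling. Leaving out 1 sample at a time gave 0.36 to 0.98 for Adm, 0.12 to 0.26 for Calcrl, 0.15 to 0.30 for Ramp2, 0.24 to 0.69 for Ramp3 and -0.0046 to 0.21 for Ramp1. It gave -2.92 to -0.064 percentage points for the Ramp2 share, -0.04 to 0.09 for the log2 ratio of summed Ramp to Calcrl FPKM and -0.51 to -0.05 for that of Ramp2 to Ramp3. For related genes it gave ranges that crossed 0, -0.078 to 0.15 for Ackr3 (below 0 without WT sample 1 or 2 or Apelin-KO sample 2), -0.0077 to 0.22 for Crcp and -0.10 to 0.026 for Pam (turned without WT sample 2), and -0.13 to 0.27 for Aplnr (turned without Apelin-KO sample 1). Over the same fits Gpr182 lay between 0.29 (without WT sample 2) and 0.65 (without WT sample 1), Hif1a between 0.0073 and 0.23, Slc2a1 between 0.098 and 0.78, and Vegfa between -1.01 and -0.065, the last 3 pairs being the values without Apelin-KO sample 3 and without Apelin-KO sample 1.

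The number of genes called was 1, and 2 with no filter, with a mean of at least 5 FPKM or with an intensity trend, 0 with each gene's own variance, and 0 to 3 when 1 sample was left out. The adjusted p of Apln was 0.497 with its own variance (difference -4.73), 0.0770 without WT sample 2 (-4.76) and 0.108 without Apelin-KO sample 2 (-4.78), and the cause was not tested. No label or description states that the replicate numbers pair the samples. The deviations of same-numbered samples correlated at -0.14, 0.21 and -0.02, and not every sample correlated best with its own number. With 3 samples per group, these correlations cannot tell whether same-numbered samples were handled together. With the replicate number as a block, Adm kept its difference of 0.60 with an adjusted p of 0.704, Calcrl had 0.742, Ramp2 0.700 and Ramp3 0.704, and 1 gene was called.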
